A study of Mus musculus with 6 samples.

Results

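Lung tumour cells that held abundant Sftpc, the surfactant protein C transcript of alveolar type II (ATII) cells, together with a moderate amount of Hopx, a transcript of alveolar type I (ATI) cells, made up 1126 of the 16017 cells in the data. They were selected on measured values. A cell had to have at least 500 genes detected, at most 20% of its unique molecular identifiers (UMIs, each standing for 1 captured transcript) on mitochondrial genes, at least 1 UMI of the tumour label TdTomato and, per 10000 UMIs of the cell, at least 500 of Sftpc, 2 to under 15 of Hopx and under 50 of the keratins Krt8 and Krt18 together. Below they are called Hopx-moderate cells. They were compared with 7066 Hopx-low cells, which had at least 500 Sftpc and under 2 Hopx per 10000 UMIs with no keratin limit, and with 1077 Hopx-high cells, which had 15 Hopx or more whatever their Sftpc or keratin.

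The cells were sorted from lung tumours of 6 mice that carried Lkb1XTR/XTR and Rosa26LSL-tdTomato, so that Cre delivered to the airway by a lentivirus switched on tdTomato and trapped Lkb1 (gene symbol Stk11) in the same cells. Tumours grew for 20 weeks before tamoxifen (4 mg doses) or vehicle was given for 2 weeks. In the 3 restored mice, 2 male and 1 female, the added allele FLPo-ERT2 and tamoxifen together removed the Lkb1 trap. The 3 non-restored mice were 2 males without that allele, 1 on tamoxifen and 1 on vehicle, and 1 female with it on vehicle. All 6 shared the Lkb1XTR and tdTomato alleles, tumour initiation was limited to the cells the virus reached, and the sort removed cells with CD45, CD31, F4/80 or Ter119 on their surface. The matrix pooled all libraries and no file used here gives the mouse of a cell. It was therefore treated as 1 sample with no replicate check: no p-value is given, restored and non-restored mice were not compared, and all intervals are 95% intervals that cover counting error only.

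ATII cells are cuboidal cells that make, store and recycle surfactant, and they renew the alveolar lining. ATI cells are thin, flat cells that cover most of the gas exchange surface and lay down much of the alveolar basement membrane. ATII cells can turn into ATI cells, and in injured or tumour-bearing lung a keratin-high intermediate is known between them. Hopx, a small homeodomain protein without DNA binding of its own, is used as a marker of ATI cells, while Sftpc is the usual marker of ATII cells.

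**Figure D1:**
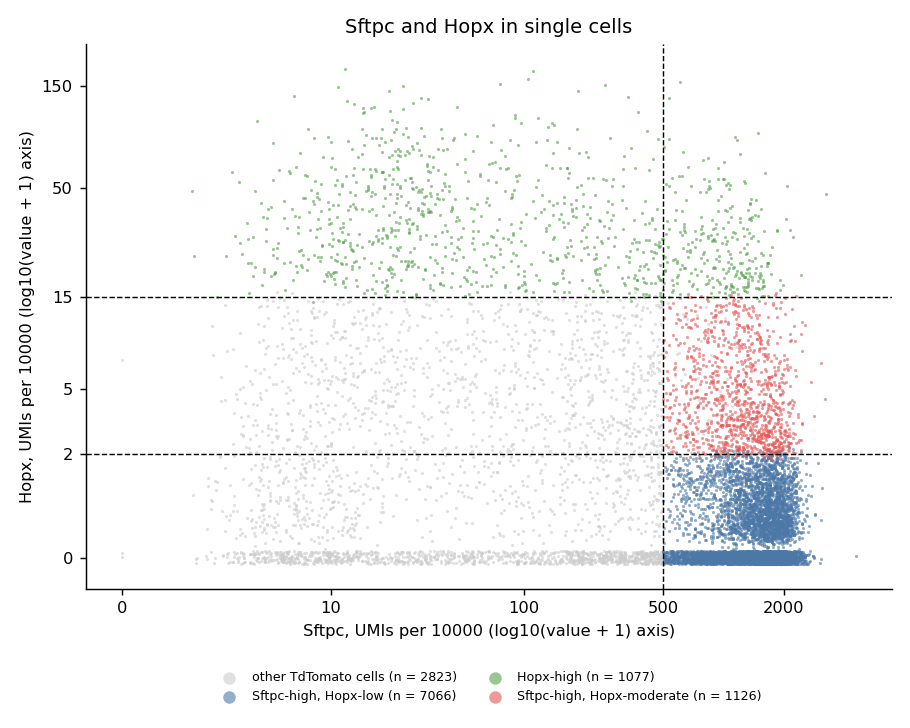
Sftpc (x axis) and Hopx (y axis) in UMIs per 10000 in each of the 12092 TdTomato cells that passed the filters, on log10(value + 1) axes with a small vertical jitter. Dashed lines mark 500 Sftpc, 2 Hopx and 15 Hopx, and the 1126 Hopx-moderate cells (red) fill the area between the 7066 Hopx-low cells (blue) and the Hopx-high cells (green) with no gap on either side.

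Of all cells, 13936 had at least 500 genes, 12183 of these passed the mitochondrial limit, and 12092 of those had TdTomato. Hopx-moderate cells were 9.31% of these 12092 cells (interval 8.80 to 9.84%) and 13.5% of the 8359 cells that met the Sftpc and keratin limits (12.7 to 14.2%). A further 52 cells met the Sftpc and Hopx limits but had 50 or more keratin UMIs per 10000, and 3 met the whole rule except for TdTomato. Sftpc abundance did not separate Hopx-moderate cells from the rest sharply: 644 keratin-low cells had the same Hopx range with under 500 Sftpc, so that 63.6% of the 1770 keratin-low cells with moderate Hopx had high Sftpc. Among the Hopx-high cells, 280 (26.0%) had at least 500 Sftpc.

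The rule fixed the levels of its own genes, and these are given as a description. Median Sftpc per 10000 UMIs was 1245 in Hopx-moderate cells, 1515 in Hopx-low cells and 83.6 in Hopx-high cells. Median Hopx was 3.99, 0 and 29.6 in the same order. Hopx-moderate cells thus kept most of the Sftpc of the Hopx-low cells while their Hopx lay much nearer to the lower group than to the upper. The median Hopx count behind a cell's value was 8 UMIs, 4.35% of the cells passed on 1 UMI, and 89.8% had at least 3. Just inside the lower limit (2 to under 2.5), 207 cells had a median of 58.0 UMIs per 10000 of the ATI genes listed below, and 366 cells just outside it (1.5 to under 2) had 55.8. At the upper limit, 77 cells at 12 to under 15 had 140 and the 54 cells at 15 to under 18 with the same Sftpc and keratin limits had 171. Values changed gradually across each limit.

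Hopx-moderate cells were somewhat less deeply sequenced than Hopx-low cells, and 5.86% against 2.97% had under 5000 UMIs. The median was 20376 UMIs per cell (range 770 to 81880) against 21713 in Hopx-low and 12414 in Hopx-high cells, and the median mitochondrial share was 3.38%, 4.26% and 2.15%. The doublet caller Scrublet called 0 of 13936 cells with its automatic threshold and had therefore not worked. Of the Hopx-moderate cells, 14.2% (12.2 to 16.4%) were among the 6% of cells with the highest Scrublet scores, against 6.52% of Hopx-low and 3.90% of Hopx-high cells. Some of the values below were computed again without them, and their part in the others was not tested. Without them 966 Hopx-moderate cells remained.

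Free RNA was read in 63 cells with no TdTomato UMI that had immune, endothelial or fibroblast markers. Their Sftpc had a median of 23.5 and a maximum of 181 per 10000 UMIs, below the limit of 500 in all 63. Hopx reached the limit of 2 in 3 of them.

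Levels below are counts per 1000000 UMIs (CPM), with the UMIs of all cells of a group summed. The 6 genes nominated to mark these cells were Shh (GRCm38, chromosome 5, 28456815 to 28467256), the hedgehog ligand of lung epithelium, Npnt (chromosome 3, 132881745 to 132950291), which encodes the basement membrane protein nephronectin, Scx (chromosome 15, 76457452 to 76459458), a basic helix-loop-helix factor best known from tendon, Gramd2 (chromosome 9, 59680144 to 59718874), a known ATI marker, Scnn1b (chromosome 7, 121865038 to 121918514), a subunit of the epithelial sodium channel, and Cdkn1c (chromosome 7, 143458339 to 143461050), the imprinted inhibitor of cyclin-dependent kinases p57. Coordinates are of the whole gene in the GENCODE M21 annotation. The nomination was made with these data in view, so their direction is not independent evidence.

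Of the 6 genes, 5 were at least 2-fold higher in Hopx-moderate than in Hopx-low cells, where 2.19% of 7801 genes with at least 10 CPM were (171 genes). None of the 6 was 2-fold lower, as 1.01% of the genes were (79). Each cell was also thinned to 5000 UMIs and the groups were chosen again on the thinned counts. This gave 1966 Hopx-moderate and 5911 Hopx-low cells. There 1 Hopx UMI meets the limit, so depth and membership changed together. In these re-chosen groups Shh (log2 ratio 0.75), Npnt (0.75) and Scx (0.97) did not reach 2-fold. Neither did Npnt relative to the median gene in the original groups (0.98). Shh stood at 40.2 CPM in Hopx-low, 89.8 in Hopx-moderate and 109 in Hopx-high cells, a 2.24-fold rise (2.13 to 2.35) over the first and 1.22-fold below the last. Npnt stood at 182, 392 and 491 CPM in the same order (2.16-fold over Hopx-low, 2.11 to 2.21). Both levels were thus nearer to those of all Hopx-high cells than to those of Hopx-low cells. For Npnt this was less so against the Hopx-high cells with at least 500 Sftpc alone, as given below. Scx stood at 23.2, 56.4 and 92.9 CPM (2.42-fold), Gramd2 at 29.9, 79.6 and 152 CPM (2.66-fold), and Scnn1b at 18.95, 52.0 and 131 CPM (2.74-fold). Scnn1b, at 2.53-fold, was the only gene of the 6 to be more than 2-fold lower than in Hopx-high cells, and it was not against those with at least 500 Sftpc alone (log2 ratio −0.92). Cdkn1c was nearly level across the groups, at 59.1, 69.0 and 57.0 CPM, 1.17-fold over Hopx-low (1.11 to 1.23) and 1.21-fold over Hopx-high cells (1.12 to 1.31). It was the only nominated gene with its highest level in the Hopx-moderate cells, so 5 of the 6 genes mark a step between the compared groups rather than these cells alone.

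Where each gene stood between the compared groups was expressed as a position on the linear CPM scale, 0% being its Hopx-low level and 100% its Hopx-high level, for genes with at least 10 CPM that differed at least 2-fold between those groups. Over the 993 genes that were higher in Hopx-high cells the median position of the Hopx-moderate cells was 28.0%, 90% of genes lay from 11.6 to 49.1%, and 44 genes were at 50% or more. Hopx itself, used by the rule, was at 14.5%. Shh was at 72.0% (64.3 to 79.7) and Npnt at 67.8% (64.3 to 71.3), both past the upper end of that range. Scx at 47.5%, Gramd2 at 40.8% and Scnn1b at 29.4% lay within it. The position of Shh was sensitive to the definition of the groups and to the scale: it fell to 54.7% with at least 1000 Sftpc per 10000 and rose to 85.6% when Sftpc and mitochondrial genes were left out of the total, and it was 74.7% without the highest Scrublet scores. Npnt stood at 60.3%, 80.5% and 70.6% under the same changes. With each cell thinned to 5000 UMIs before the groups were chosen, Shh was at 44.9% and Npnt at 41.0%, while the median of the ATI genes listed below went from 22.2 to 11.8%. Against the Hopx-high cells with at least 500 Sftpc alone, Shh stood at 72.4%, but Npnt at 54.1% was close to Gramd2 at 53.9% and Scx at 50.4%.

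**Figure D2:**
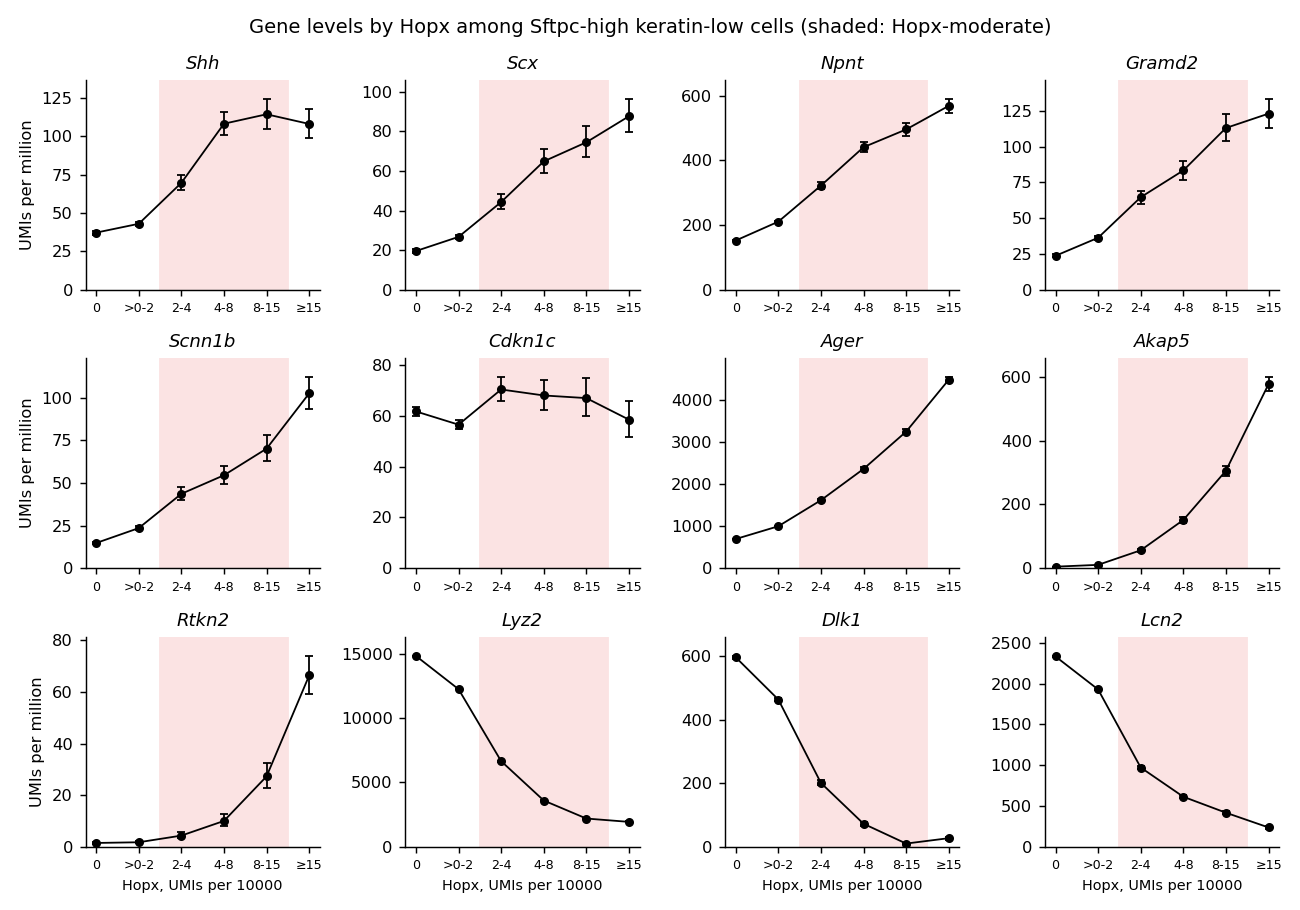
Levels in CPM (y axis, from 0) in 6 bins of Hopx per 10000 UMIs (x axis) among Sftpc-high keratin-low cells, 1 panel per gene; points are summed levels, bars 95% Poisson intervals, and shading marks the 3 Hopx-moderate bins. Shh levels off from 4 Hopx upward, Cdkn1c stays between 56.5 and 70.3 CPM, Akap5 and Rtkn2 climb most in the last bins, and Lyz2, Dlk1 and Lcn2 fall.

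The same genes were followed over Hopx among the 8359 Sftpc-high keratin-low cells, which fell into 4022 cells with no Hopx UMI, 2952 above 0 to under 2 per 10000, 565 at 2 to 4, 335 at 4 to 8, 226 at 8 to 15 and 259 at 15 or more. Shh was 37.2, 43.0, 69.6, 108, 114 and 108 CPM in these bins. Its last 3 intervals overlapped, so it levelled off within the Hopx-moderate range. Scnn1b rose in each bin, from 14.8 through 43.6, 54.5 and 70.1 to 103 CPM, and Gramd2 rose from 23.7 through 64.6, 83.3 and 113 to 123 CPM. Scx and Npnt rose in each bin as well, so 4 of the 6 genes did, a count with no share over all genes beside it. Cdkn1c was 61.7 CPM without Hopx, 70.3, 68.0 and 66.9 in the Hopx-moderate bins and 58.5 at the top. Median Sftpc itself fell over these bins, from 1477 to 1054 per 10000. Among cells restricted to 1000 to 2000 Sftpc per 10000, Shh still went from 36.0 CPM without Hopx to 67.2, 89.9 and 106 in the Hopx-moderate bins and 107 at 15 or more.

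Many ATI identity genes were higher in the Hopx-moderate cells, by unequal amounts. Of 30 listed genes, 24 reached 10 CPM in either group, and 17 of these were at least 2-fold higher than in Hopx-low cells (2.19% of all genes), none 2-fold lower (1.01%), with a median log2 ratio of 1.54 against 0.13 over all genes. Of the 17, 6 reached 10 CPM only in the Hopx-moderate cells, so that the level minimum favoured a rise for them. In the groups chosen again after thinning to 5000 UMIs (1966 Hopx-moderate cells), 11 were at least 2-fold higher. Against Hopx-high cells, 24 of 27 were at least 2-fold lower, where 4.51% of 8196 genes were, and none was 2-fold higher, where 3.1% were, with a median log2 ratio of −1.90 against −0.25 over all genes. Spock2, Pdpn and Cav1 reached 10 CPM only in the Hopx-high cells, so the level minimum favoured a fall for them. Akap5, an anchoring protein for protein kinase A, stood at 7.91 CPM in Hopx-low, 133 in Hopx-moderate and 778 in Hopx-high cells, 16.8-fold over Hopx-low (15.7 to 17.9). This was the largest ratio among genes that reached 10 CPM in Hopx-low or Hopx-moderate cells, and Akap5 did so only in the latter. Ager, the receptor for advanced glycation end products and a classical ATI marker, stood at 848, 2151 and 5756 CPM. Aqp5, the water channel of ATI cells, stood at 844, 1589 and 2489 CPM. Rtkn2, a marker of ATI cells, stood at 1.52, 10.4 and 161 CPM.

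On the linear CPM scale Aqp5 had the highest position of the ATI genes, 45.2%, and Rtkn2 the lowest, 5.57%, with a median of 22.2% over the 27 genes that had a position. Rtkn2 stood at 2.41% in the groups chosen again after thinning, 2.89% without the highest Scrublet scores and 3.33% with equal weight per cell. It stood at 14.4% against the Hopx-high cells with at least 500 Sftpc alone. Spock2, which encodes a matrix proteoglycan, was at 7.69%, Cav1, the main protein of caveolae, at 10.8% and the semaphorin Sema3e at 11.4%. Pdpn, the ATI surface protein podoplanin, at 17.7%, rose from 1.21 to 9.23 and 46.4 CPM. Over the Hopx bins, 25 of 27 ATI genes rose in each bin. No share over all genes is given for this count, so it is a description. In the cells at 8 to 15 Hopx, Ager had reached 3241 CPM against 4473 in Sftpc-high cells at 15 or more, and Akap5 305 against 576.

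Of 20 listed ATII identity genes other than Sftpc, 3 were at least 2-fold lower than in Hopx-low cells (1.01% of all genes) and none was 2-fold higher (2.19%), with a median log2 ratio of −0.53 against 0.13 over all genes. In the groups chosen again after thinning to 5000 UMIs (1966 Hopx-moderate and 5911 Hopx-low cells), 0 were 2-fold lower. Lyz1, a lysozyme, went from 68.7 to 6.10 and 0.453 CPM in Hopx-low, Hopx-moderate and Hopx-high cells. Its paralogue Lyz2 went from 13434 to 4870 and 704 CPM, 2.76-fold lower in Hopx-moderate than in Hopx-low cells. Reads of these close copies may be split by the counting. Lyz1 was uneven from cell to cell, with UMIs in 8.53% of Hopx-low cells and 94.5% of them in 71 cells, so that its fall rests on few cells. Chil1, a chitinase-like protein, went from 1916 to 933 and 135 CPM. The lysozymes and the secreted products Chil1 and Cxcl15, an epithelial chemokine (53.3%), had positions past 50%, and Lyz2 was at 67.3%. Fabp5, a fatty acid binding protein, was past 50% as well, at 51.5%.

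Positions of the surfactant proteins were spread. Sftpd, surfactant protein D, was 4779 CPM in Hopx-low, 5016 in Hopx-moderate and 2074 in Hopx-high cells, a position of −8.75%. Sftpb, surfactant protein B, was at 19.6% and Sftpa1, surfactant protein A, at 42.9%. Etv5, a transcription factor that maintains ATII cells, was 122, 118 and 47.7 CPM, and Lpcat1, which makes surfactant phosphatidylcholine, was 840, 798 and 308 CPM. Both were therefore within 1.1-fold of their Hopx-low level. Over the 453 genes lower in Hopx-high cells the median position was 45.8%, with 90% of genes from 10.0 to 70.0%. Against Hopx-high cells, 17 of 19 ATII genes were at least 2-fold higher (3.1% of all genes). Over the Hopx bins, 12 of 20 fell in each bin and all 20 were lower at 8 to 15 than at 2 to 4 Hopx. These counts have no share over all genes beside them and are a description.

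**Figure D3:**
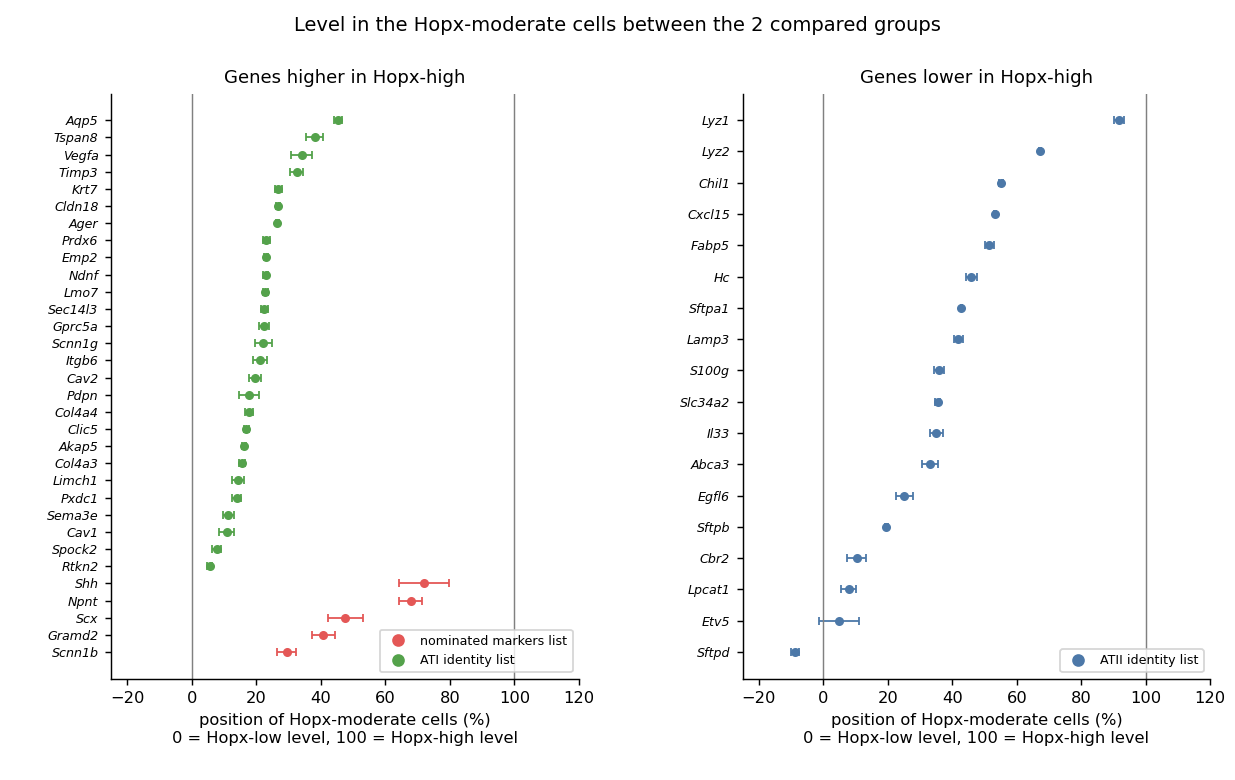
Position of the Hopx-moderate cells between the Hopx-low level (0%) and the Hopx-high level (100%) for each listed gene (y axis) that differed at least 2-fold between those groups, with 95% counting intervals. ATI genes (green) run from Rtkn2 at 5.57% to Aqp5 at 45.2%, Shh and Npnt (red) stand at 72.0 and 67.8%, and ATII genes (blue) run from Sftpd at −8.75% to Lyz1 at 91.7%.

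Single cells were then placed by their summed ATI and ATII identity genes. The ATI sum had a median of 86.7 UMIs per 10000 in Hopx-moderate cells (range 13.9 to 259), 39.0 in Hopx-low and 249 in Hopx-high cells. The ATII sum, without Sftpc, had medians of 407, 647 and 54.9. With limits at the 95th percentile of the ATI sum (78.8) and the 5th percentile of the ATII sum (298) of Hopx-low cells, 32.3% of Hopx-moderate cells (29.6 to 35.1%) had a high ATI sum together with an ATII sum in the Hopx-low range. This combination was found in 3.75% of Hopx-low and 7.89% of Hopx-high cells. A further 24.5% had a high ATI sum and a low ATII sum, and 37.8% were within the Hopx-low range on both. The Hopx-moderate cells therefore covered a range of both sums, and 18.3% of them reached the 5th percentile of the ATI sum of Hopx-high cells. The limits came from Hopx-low cells and the cells were chosen on Hopx, so these shares are a description. They were not computed without the cells with the highest Scrublet scores, and the part of those cells in them was not tested.

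**Figure D4:**
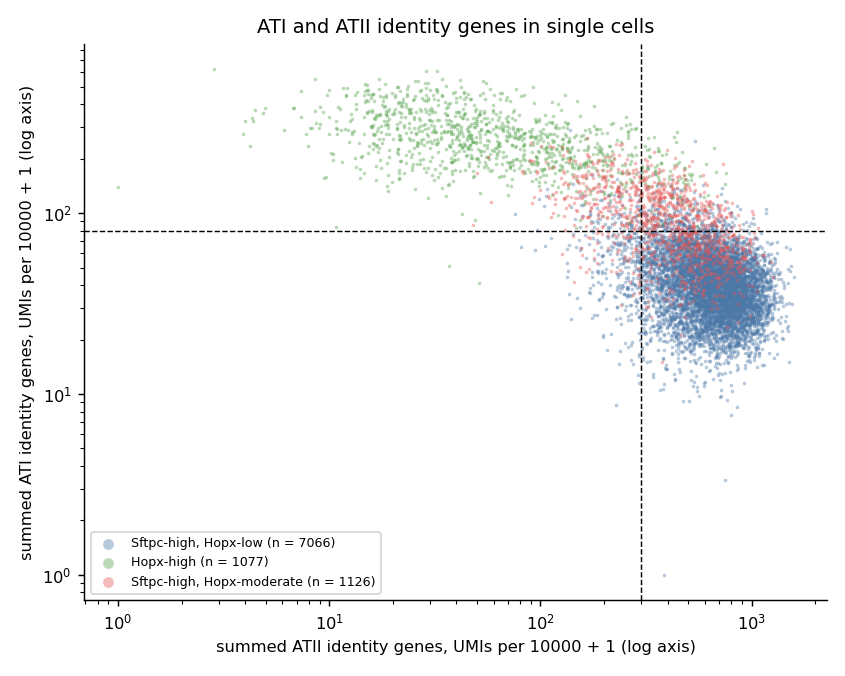
Summed ATI genes (y axis) against summed ATII genes (x axis) in UMIs per 10000 plus 1, both on log axes, 1 point per cell; dashed lines are the 95th percentile of the ATI sum and the 5th percentile of the ATII sum of Hopx-low cells. Hopx-moderate cells (red) spread from the Hopx-low cloud (blue) toward the Hopx-high cells (green), with 32.3% in the upper right.

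Within the Hopx-moderate cells, Hopx had a rank correlation of 0.60 with the ATI sum, −0.39 with the ATII sum and −0.18 with Sftpc over 1126 cells, and Sftpc had one of 0.53 with the ATII sum and −0.35 with the ATI sum. These points share the cell's own UMI total, and the cells come from an unknown mix of mice. The same cells were also split by Sftpc, a gene of the rule. In 361 cells at 500 to 1000 Sftpc per 10000, 683 at 1000 to 2000 and 82 at 2000 or more, Shh was 120, 79.8 and 43.6 CPM. Lyz2 ran the other way, at 1478, 5967 and 10584 CPM. Scnn1b hardly moved with Sftpc, at 54.3, 51.0 and 50.8 CPM. Median Hopx fell over these bins as well, at 4.69, 3.69 and 3.27 per 10000. The median ATI sum also fell, at 111, 79.0 and 67.2.

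Named for the size of their ratio, and in part members of the lists, were the genes at either end of the comparison with Hopx-low cells. The 10 largest ratios over Hopx-low cells were those of Akap5, Cavin2, Tgfb2, Ndnf, Sema3e, Sema3a, Msln, Wfdc1, Rtkn2 and Nbl1, and all 10 were higher still in Hopx-high cells. All of these but Ndnf were under 10 CPM in Hopx-low cells, so the level minimum favoured a rise for them. Cavin2, a caveolar coat protein, stood at 4.03, 43.9 and 217 CPM in Hopx-low, Hopx-moderate and Hopx-high cells, and Sema3a, a secreted guidance ligand, at 4.26, 36.8 and 138 CPM. The 10 largest falls were those of Lyz1, Gdpd2, Gkn2, Dlk1, Oit1, Bcl2a1a, Mgp, Hdc, Ryr2 and Lrg1. All of these but Dlk1, Hdc and Lrg1 were under 10 CPM in Hopx-moderate cells, so the level minimum favoured a fall for them. In the groups chosen again after thinning to 5000 UMIs, the log2 ratios of Lyz1 (−0.88), Hdc (−0.95) and Mgp (−0.56) were under 2-fold. Dlk1, an imprinted Notch-like growth regulator, went from 529 to 125 and 19.8 CPM, and Lrg1, an acute-phase glycoprotein, from 669 to 197 and 25.2 CPM. Gkn2, a gastrokine, had 94.5% of its Hopx-low UMIs in 71 cells. Dlk1 was uneven from cell to cell, with UMIs in 11.9% of Hopx-moderate cells and 50.7% of them in 11 cells. The level of Dlk1 went from 597 CPM without Hopx through 201, 72.0 and 9.502 CPM in the Hopx-moderate bins to 26.5 CPM at 15 or more.

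Against Hopx-high cells, the highest ratios belonged to Gzme, Ube2c, Fabp5, Scgb1a1, Slc26a4, Itih4, Tmem252, Cst8, C3 and Trf. All of these but Fabp5, Scgb1a1 and Trf were under 10 CPM in Hopx-high cells, so the level minimum favoured a rise for them. Fabp5, a fatty acid binding protein of ATII cells, was 248 CPM in Hopx-moderate and 18.4 CPM in Hopx-high cells, and Trf, transferrin, was 491 and 61.4 CPM. Gzme, a granzyme, had 95.4% of its Hopx-moderate UMIs in 11 cells. The log2 ratio of Ube2c, a ubiquitin-conjugating enzyme of dividing cells, went to −0.021 with at least 1000 Sftpc, and that of Scgb1a1 from 3.21 to 0.15 with at least 1000 Sftpc and to 0.11 without cells above the 98th percentile of genes. The lowest belonged to Lims2, Rtkn2, Ifit3, Spock2, Ifit3b, Cyp4b1, Tm4sf1, Bdnf, Tmem108 and Rasgrf2. All of these but Rtkn2 were under 10 CPM in Hopx-moderate cells, so the level minimum favoured a fall for them. Bdnf, a neurotrophin, was 4.88 CPM in Hopx-moderate and 54.1 CPM in Hopx-high cells, and the interferon-induced Ifit3 was 3.66 and 46.6 CPM. The Ifit3 and Bdnf levels of the Hopx-moderate cells were thus more than 10-fold below those in the Hopx-high cells.

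Genes of other epithelial programmes differed in part. A gene that reached 10 CPM only in the Hopx-moderate cells was favoured by that minimum to count as higher, and the number of such genes is given with each list. Among 17 hedgehog genes only Shh and its receptor Ptch1 reached 10 CPM in Hopx-low or Hopx-moderate cells, and Ptch1 was 18.6 CPM in Hopx-low and 23.6 in Hopx-moderate cells. Of the sodium and water genes, 2 of 12 were at least 2-fold higher (2.19% of all genes) and 1 was 2-fold lower (1.01%): beside Scnn1b, the channel subunit Scnn1g rose from 7.86 to 28.1 CPM, while the protease Tmprss4 fell from 60.3 to 26.5 CPM. The third subunit, Scnn1a, went from 70.1 to 132 CPM, under the 2-fold limit. Scnn1g reached 10 CPM only in the Hopx-moderate cells.

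Of the basement membrane genes, 6 of 17 were at least 2-fold higher (2.19% of all genes) and none 2-fold lower (1.01%). Beside Npnt these were Col4a3, Col4a4 and Col4a5, chains of the type IV collagen network, the laminin chain Lama3 and the proteoglycan Agrn, and 2 of the 6, Col4a5 and Lama3, reached 10 CPM only in the Hopx-moderate cells. Col4a3 rose from 13.1 to 71.2 CPM (384 in Hopx-high cells), whereas the ubiquitous chain Col4a1 was 171, 244 and 372 CPM. Of the vascular and axon guidance ligands, 5 of 13 were at least 2-fold higher (2.19% of all genes), namely Sema3a, Sema3b, Sema3e, Pdgfb and the receptor Nrp2. All 5 reached 10 CPM only in the Hopx-moderate cells, so this count is a description of genes the minimum let in. Vegfa, which ATI cells send to capillaries, was 165 CPM in Hopx-low, 239 in Hopx-moderate and 384 in Hopx-high cells. The Wnt list held 3 of 10 at least 2-fold higher (2.19% of all genes), Wnt7a (6.07 to 28.3 CPM), the receptor Fzd2 and Porcn, which acylates Wnt ligands for release. Of these, 1, Wnt7a, reached 10 CPM only in the Hopx-moderate cells. Porcn, at 12.7, 26.3 and 29.7 CPM, had a position of 80.3% (62.8 to 97.9).

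Of the YAP and TEAD genes 3 of 13 were at least 2-fold higher (2.19% of all genes), the targets Cyr61 (108 to 280 CPM) and Ctgf (4.65 to 25.3 CPM) and the scaffold Ajuba, while Yap1 was 35.8 and 36.9 CPM. Ctgf and Ajuba, 2 of the 3, reached 10 CPM only in the Hopx-moderate cells. Of the genes of the keratin-high transitional state, with Krt8 and Krt18 left out since the rule limits them, 5 of 14 were at least 2-fold higher (2.19% of all genes). These were Cldn4, Clu, S100a6, Ctgf and Sprr1a, and the median log2 ratio of the list was 0.70. Cldn4, Ctgf and Sprr1a, 3 of the 5, reached 10 CPM only in the Hopx-moderate cells. Sprr1a is counted here although 96.1% of its UMIs lay in 11 cells, and its log2 ratio turned to −0.85 without the highest Scrublet scores. Clu, a secreted chaperone, stood at 370, 813 and 1524 CPM. Tight junction genes had 1 of 13 past the limit, Cldn4. Glycolysis, lipid synthesis and MHC class II genes had none of 14, 15 and 7, with median log2 ratios of 0.07, −0.40 and −0.09. Counts this low in short lists are near the shares over all genes, 2.19% higher and 1.01% lower.

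Of the inhibitors of cyclin-dependent kinases, Cdkn2a was 30.6, 76.7 and 255 CPM and Cdkn2b 36.2, 73.4 and 212 CPM in Hopx-low, Hopx-moderate and Hopx-high cells, 2 of the 12 genes measured on that list to be at least 2-fold higher (2.19% of all genes), and Dlk1 and Mirg, imprinted genes of 1 cluster, were the 2 that were 2-fold lower (1.01%). The inhibitors Cdkn1a (301 CPM in Hopx-low and 366 in Hopx-moderate cells), Cdkn1b (46.8 and 50.2 CPM) and Cdkn2d (11.5 and 11.4 CPM), like Cdkn1c, did not reach 2-fold. Proliferation genes had 0 of 6 past the limit, which is near the shares over all genes (2.19% higher and 1.01% lower). Mki67 was 13.3 CPM in Hopx-low, 7.97 in Hopx-moderate and 1.16 in Hopx-high cells. Of the lung transcription factors, 2 of 21 were at least 2-fold higher (2.19% of all genes), Id3 (41.6 to 92.1 CPM) and Scx, and 1 was lower (1.01%), Sox9 (14.3 to 6.55 CPM), while the lineage factor Nkx2-1 was 337, 424 and 597 CPM. Stk11 was 24.02, 23.1 and 29.6 CPM and the GFP of the trap 21.3, 28.4 and 38.3 CPM. Since cells could not be assigned to mice, these last values say nothing of restoration.

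Hopx-moderate cells were further set beside the 644 keratin-low cells that had the same Hopx range but under 500 Sftpc. None of the 6 nominated genes differed 2-fold between them. Over all 8695 genes, 1.54% were at least 2-fold higher and 7.05% at least 2-fold lower in the Sftpc-high cells. For so few genes, none past 2-fold is near those shares. Shh was 89.8 CPM with and 99.6 CPM without high Sftpc, Scx 56.4 and 50.8, Npnt 392 and 316, Gramd2 79.6 and 89.8, Scnn1b 52.0 and 56.0, and Cdkn1c 69.0 and 111 CPM. The largest difference was that of Cdkn1c, 1.61-fold lower in the Sftpc-high cells (1.49 to 1.73), while Npnt was 1.24-fold higher (1.19 to 1.29). Of the identity genes, 12 of 27 ATI genes were at least 2-fold lower and 14 of 19 ATII genes at least 2-fold higher in the Sftpc-high cells, and 12 of 16 transitional genes were at least 2-fold lower. Median Hopx was 3.99 in the Sftpc-high cells and 6.06 in the others, and the others had more of the immune gene Laptm5 (11.3 CPM against 0.0407), of the ciliated cell genes Ccdc153 (70.1 against 0.854) and Foxj1 (41.4 against 1.02), and of the fibroblast genes Col1a1 (23.3 against 1.26) and Dcn (19.6 against 0.895). The sets therefore differ in more than Sftpc.

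Few genes were higher or lower in Hopx-moderate cells than in both compared groups. Of 7686 genes with a value in both comparisons, 5 were at least 1.5-fold higher than in both, 1 at least 2-fold, and 0 at least 1.5-fold lower. The largest, Scgb1a1, the secretory protein of club cells, was 79.0, 293 and 31.6 CPM in Hopx-low, Hopx-moderate and Hopx-high cells, but 6393 of its 7218 UMIs in the Hopx-moderate cells came from 1 cell. Sprr1a, a cornified envelope gene, was 7.90, 41.4 and 23.1 CPM, with 96.1% of its UMIs in 11 cells. Neither is a property of the Hopx-moderate cells at large. When cells with at least 10 secretoglobin (Scgb1a1 and Scgb3a2) or 2 Sprr1a UMIs per 10000 were left out, a limit chosen after the values were seen, the log2 ratio over Hopx-low cells fell from 1.89 to −0.16 for Scgb1a1 and from 2.39 to −0.27 for Sprr1a.

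The other genes of this kind were spread over more cells. 1810010H24Rik was 21.6, 37.5 and 12.5 CPM with UMIs in 35.9% of the Hopx-moderate cells, and Fgfbp1, which releases fibroblast growth factors from the matrix, was 12.6, 19.1 and 9.25 CPM. Fxyd4, a regulator of the sodium pump, was 15.6, 29.3 and 17.98 CPM, with 38.6% of its UMIs in 11 cells. Homer2, a synaptic scaffold also found in epithelia, was 21.7, 48.5 and 44.5 CPM, a position of 118% (96.6 to 139), and was chosen after its values were seen. Among genes lower than in both groups, Klf2, a factor of quiescent and flow-exposed cells, was 308, 238 and 311 CPM, and Clic1, a chloride channel protein, was 295, 237 and 305 CPM. Neither reached 1.5-fold against either group.

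Over the 6 Hopx bins, the genes with the profile most like that of Hopx by Pearson correlation of log2(CPM + 1), among 1182 genes with at least a 2-fold range, were Fry (0.99), Ctsh (0.99), Veph1 (0.99), Serpinb6b, Liph, Rasl11a, Tmem37, Kifc3, Fads3 and Cytip. Ctsh, a cathepsin that helps process surfactant protein B, went from 1611 CPM without Hopx through 2831, 3184 and 3399 CPM to 3685 CPM at 15 or more. Fry went from 7.13 to 15.03 CPM. The most unlike included Atp2a3 (−0.96), Tbc1d24, Unc119, Ints6l, Dock4, Fam126b, Man2a2, Acot7 and Ppp1r1b. The 6 points share the same cells and bin limits, and the correlations carry no test.

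To compare shares of cells at equal depth, each cell of the original groups was thinned to 5000 UMIs without choosing the groups again. This left out 66 Hopx-moderate, 210 Hopx-low and 121 Hopx-high cells. At least 1 Shh UMI was then found in 34.4% of 1060 Hopx-moderate cells (31.6 to 37.4%), 17.97% of Hopx-low and 38.2% of Hopx-high cells, and in 0 of 22 non-epithelial cells of that depth, which allows a share of up to 13.6% (3 cells of 22) or, by the exact binomial interval, 15.4%. Unthinned shares of Shh were 68.4%, 48.8% and 58.6%. Akap5 was found in 36.0%, 3.84% and 86.8% of cells in the same order, and Rtkn2 in 3.49%, 0.773% and 33.7%. Among the 22 non-epithelial cells, Akap5 was found in 4.55% (0.115 to 22.8%) and Rtkn2 in 0, which allows up to 13.6%. These cells are too few to tell the Akap5 share of Hopx-low cells from free RNA, or the Rtkn2 shares of Hopx-low and Hopx-moderate cells. The interval of the Rtkn2 share was 2.47 to 4.78% in Hopx-moderate and 0.580 to 1.01% in Hopx-low cells, and the part of free RNA in it was not tested. Unthinned, Akap5 was found in 56.0% of Hopx-moderate, 11.1% of Hopx-low and 92.3% of Hopx-high cells, and a cell without a UMI at either depth may still express the gene. Npnt was found in 73.4% of Hopx-moderate cells but also in 36.4% of the 22 non-epithelial cells, and Lyz2 in 65.2% against 54.5%, which limits how far a single UMI of these genes can be read.

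Of the 6 nominated genes, at least 3 were found together in 33.8% of thinned Hopx-moderate cells (30.9 to 36.7%), 10.9% of Hopx-low and 56.9% of Hopx-high cells. None of the 6 was found in 6.79%, 26.4% and 3.24%. The genes therefore described the group in its sum and did not pick out single cells.

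**Figure D5:**
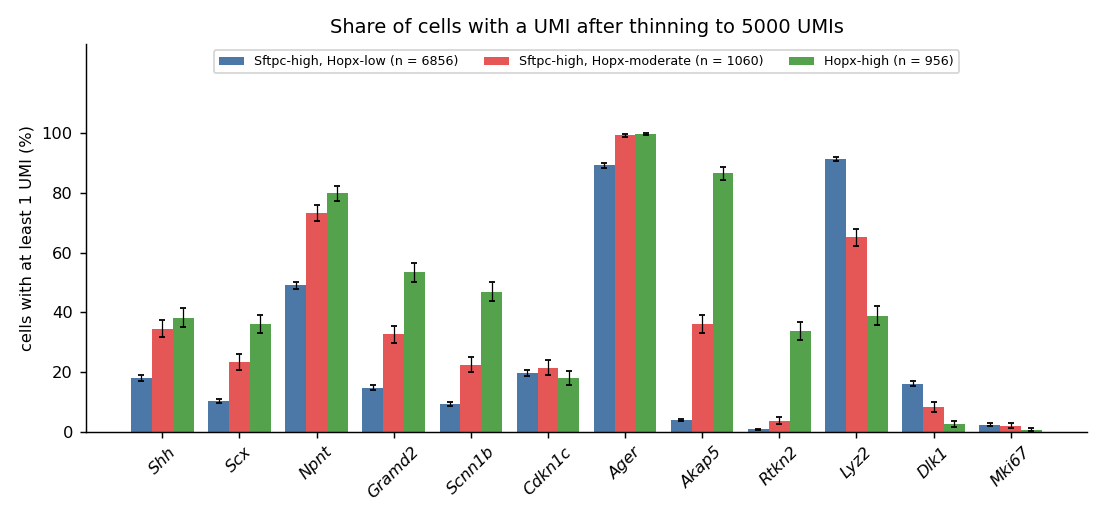
Share of cells with at least 1 UMI of each gene (y axis, percent) after each cell was thinned to 5000 UMIs, in Hopx-low (blue, n = 6856), Hopx-moderate (red, n = 1060) and Hopx-high cells (green, n = 956), with 95% exact binomial intervals. Shh in Hopx-moderate cells (34.4%) stands near Hopx-high cells (38.2%), while Akap5 (36.0%) and Rtkn2 (3.49%) stand far below them (86.8 and 33.7%).

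Of the markers of other cell types, those of ciliated and club cells had the highest sum. The 11 immune markers summed to 1.55 CPM in Hopx-moderate cells with 4 of them at 0, against 4.96 in Hopx-low and 5.50 in Hopx-high cells, and the highest was at 0.529 CPM. The 8 endothelial markers summed to 11.5 CPM, 9.92 of it Egfl7, against 17.5 and 9.51 CPM. The 8 fibroblast markers summed to 8.498 CPM, 5.53 of it Mgp, with 2 at 0, against 31.5 and 10.6 CPM. The fall of Mgp from 19.9 to 5.53 CPM moved with those markers, and its log2 ratio was 0.12 once cells with markers of other classes were left out. The 9 ciliated and club markers summed to 400 CPM, against 154 in Hopx-low and 242 in Hopx-high cells. Of this, 293 CPM was the Scgb1a1 described above, 55.3 CPM was Tppp3, a ciliated cell gene, and 33.2 CPM was Cyp2f2, a club cell enzyme. Tppp3 was 27.8 CPM in Hopx-low and 185 in Hopx-high cells, and the part of these cells in the other values was not tested beyond leaving out cells with such markers. The 6 basal and neuroendocrine markers summed to 0.325 CPM with 4 at 0.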

How the data were processed

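Single-cell libraries (10x Chromium 3′, v3) were made from sorted tumour cells of 6 mice. The deposited values were counts: whole UMI counts per gene and cell, which the authors had not normalized. Per the labels and the file headers, the authors made them with Cell Ranger 3.0.2 on mm10. GFP and TdTomato were added features. The gene annotation used for counting is not given in the sources used here. The study's own clusters were not used here. A further allele shared by all mice and some genes are not reported here.

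The matrix of 31055 features, 16017 cells and 266713311 UMIs (median 13985 per cell) was treated as 1 sample. The members, the 23 gene lists and all settings were chosen with earlier results of these data known. Levels are CPM (counts per 1000000 UMIs, summed over a group), so deep cells weigh more, and a gene was compared where 1 of the groups reached 10 CPM. Calls are by size, 2-fold, with no test. Counts of 0 were set to 3 for ratios. Exact Poisson (levels), conditional binomial (ratios) and Clopper-Pearson (shares) intervals at 95% cover counting error only. Positions carry Poisson intervals by the delta method. The text names the rule genes, the nominated genes, listed genes, for each comparison the 10 strongest ratios up and the 10 strongest down, and examples from the 10 genes that stood highest and the 10 that stood lowest against both groups at once. The 10 genes most like Hopx over the bins are named as well, with examples of those most unlike it. Homer2 was chosen after its values were seen. Scripts were checked on simulated counts. Doublets were kept, and Scrublet (scanpy 1.11.5, expected rate 0.06) served only for an alternative. Alternatives changed the cell filters, the rule limits, the weighting, the scaling and the level minimum. Coordinates came from GENCODE M21 (GRCm38, the same assembly as mm10), in which 30934 features (99.6%) had an entry. The software was scipy 1.17.1, numpy 2.4.6 and pandas 2.3.3 under Python 3.11.15, with figures by matplotlib 3.10.9.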

Additional observations from a re-analysis of the deposited data

How the results depend on the processing

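No paired analysis was possible because the pooled matrix does not tie cells to mice and no test was run. Of 80 recomputed values of the share and the 4 counts, 60 stayed within the interval of the share or within 1.5 times the count. The share of Sftpc-high keratin-low cells with moderate Hopx (13.5%) was 14.2% with a mitochondrial limit of 10%, 14.6% when cells were chosen on a random part of the UMIs, 12.5% without the highest Scrublet scores, 11.4% with at least 1000 Sftpc, 7.58% with Hopx from 3 to under 10, and 24.4% when each cell was thinned to 5000 UMIs, where 1 Hopx UMI reaches the limit by construction. The groups were chosen again after that thinning (1966 Hopx-moderate cells), so depth and membership changed together. This setting left 100 genes at least 2-fold different from Hopx-low cells (250 in the report) and 1056 from Hopx-high cells (624). It left 11 ATI genes higher (17) and 0 ATII genes lower (3). A level minimum of 50 CPM left 96 and 298 genes and 11 ATI genes, since fewer genes are compared, and no minimum gave 5628 and 3787, most of them at few UMIs. Hopx-high cells with at least 500 Sftpc alone differed from the Hopx-moderate cells in 308 genes. The ATII count was 5 with Hopx 3 to under 10, with Sftpc and mitochondrial genes out of the total, relative to the median gene, and with equal weight per cell.

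The median gene was higher in Hopx-moderate than in Hopx-low cells by 0.13 (log2) and lower than in Hopx-high cells by 0.25. Relative to it, the genes past 2-fold split into 137 higher and 104 lower than in Hopx-low cells (171 and 79 in the report) and into 354 and 219 against Hopx-high cells (254 and 370), and Npnt missed the 2-fold limit over Hopx-low cells (log2 0.98). Without Sftpc and mitochondrial genes in the total, the second split was 346 and 275. When members were chosen on 1 part of the UMIs and read on the rest, 205 and 697 genes passed. Of 91 named log2 ratios, 51 were 2-fold or more, of which 14 were under 2-fold in at least 1 setting and 4 changed sign. Scgb1a1 over Hopx-low cells went to −1.22 without cells above the 98th percentile of genes, −1.22 without cells with markers of other classes, −1.29 with at least 1000 Sftpc and −0.16 without secretoglobin or Sprr1a cells. Sprr1a over Hopx-low cells went to −0.85 without the highest Scrublet scores and −0.27 without the secretoglobin or Sprr1a cells, Mgp to 0.12 without cells with markers of other classes, and Ube2c over Hopx-high cells to −0.021 with at least 1000 Sftpc. Choosing the groups again after thinning took Shh (0.75), Scx (0.97), Npnt (0.75), Veph1 (0.67), Sprr1a (0.97), Lyz1 (−0.88), Hdc (−0.95) and Mgp (−0.56) under 2-fold over Hopx-low cells. Other causes were not tested.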
